A study of Mus musculus with 18 samples.

Results

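TRP53 is known best as a transcription factor that stops the cell cycle, but a further group of its target genes acts on metabolism and autophagy. The levels of 9 such genes, Sesn1, Sesn2, Tigar, Fdxr, Sco2, Ddit4, Dram1, Cpt1c and Lpin1, were followed in primary mouse embryonic fibroblasts (MEFs) that carried 2, 1 or 0 intact copies of Trp53. They were found by symbol among the 51912 genes of the count table, and all 9 passed the filter on low counts that left 15710 genes for testing. They were listed by name, as TRP53 targets of these pathways.

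The cells were RNA-seq samples of passage 1 MEFs grown at 5% oxygen in medium with 15% serum, and each of 6 genotypes had 3 libraries, 18 in all. The genotypes combined a Pole4+/+ or a Pole4-/- background with Trp53+/+, Trp53+/- or Trp53-/-. POLE4 is an accessory subunit of DNA polymerase epsilon, the enzyme that copies the leading strand, and both alleles were germline knockouts (Trp53 tm1Brd and Pole4 tm1(KOMP)Vlcg) in C57BL/6 mice. MEFs are a mixed population of connective tissue cells from mid-gestation embryos, and no treatment is given for any group. In a bulk sample, fewer cells of a type and less RNA per cell cannot be told apart. Nothing in the labels states that the libraries came from separate embryos, so the p-values measure the spread between these samples, which may be technical in part.

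The pathways run as follows. SESN1 and SESN2, the sestrins, restrain TORC1, the kinase complex that drives growth when amino acids are plentiful, and SESN2 senses leucine. DDIT4, also called REDD1, restrains TORC1 through the TSC complex. TIGAR lowers glycolytic flux and favours the pentose phosphate pathway. FDXR feeds electrons to mitochondrial ferredoxins, SCO2 delivers copper to cytochrome c oxidase, DRAM1 is a lysosomal membrane protein that promotes autophagy, CPT1C is a carnitine palmitoyltransferase relative found in the endoplasmic reticulum, and LPIN1 is a phosphatidate phosphatase of lipid synthesis. Sesn2 and Ddit4 have other inducers as well: ATF4, the factor of the amino acid and unfolded protein responses, induces both, and hypoxia and glucocorticoids induce Ddit4.

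Library totals ran from 9535971 to 35319918 expected counts, with a median of 22781544, and ribosomal RNA genes took 0.968% to 42.5% of them. Levels are given as CPM, the counts per 1000000 counts of a library after TMM scaling, which corrects library totals for a few very abundant genes. Trp53 itself checked the labels: its level was 86.6 to 96.1 CPM in the Pole4+/+ Trp53+/+ libraries, 56.2 to 59.6 in Pole4+/+ Trp53+/- and 8.65 to 12.05 in Pole4+/+ Trp53-/-, and 64.2 to 72.7, 48.4 to 55.6 and 10.03 to 12.1 in the matching Pole4-/- libraries. Pole4 was at 9.26 to 11.99 CPM in the Pole4-/- libraries and at 14.2 to 26.4 in Pole4+/+, so reads were still counted to both genes in the knockouts. The lowest Pole4+/+ value belonged to the first Pole4+/+ Trp53-/- library, at 14.2 CPM against 25.4 and 26.4 in the rest of its group. The same library stands apart for several genes below, and many results of the 9 genes are also given without it. Cdkn1a, which encodes the cell cycle inhibitor P21, had group means of 242 and 355 CPM in the Trp53+/+ groups and 9.83 and 6.68 in Trp53-/- (Pole4+/+ and Pole4-/-). Xist and Y-linked genes divided the libraries into 7 male and 11 female; the Pole4+/+ Trp53+/- libraries were all male and the other Pole4+/+ libraries all female, so sex and Trp53+/- cannot be told apart by library in that background. Fibroblast markers were all tested and summed to 13717 to 30956 CPM, and the summed level was 13717 to 16519 CPM in Pole4-/- Trp53-/- against 24894 to 30956 in Pole4-/- Trp53+/+. In the matching Pole4+/+ groups it was 15838 to 21272 and 16328 to 22003 CPM, which overlap. At an adjusted p under 0.05, 5 of the 10 markers were lower and 1 higher in Pole4-/-, and 0 lower and 1 higher in Pole4+/+ MEFs. Of all tested genes 20.8% were lower and 21.8% higher in Pole4-/-, and 2.37% and 2.23% in Pole4+/+ MEFs. Muscle markers summed to 142 to 151 CPM in Pole4-/- Trp53+/+ and 53.5 to 68.5 in Pole4-/- Trp53-/-, and to 114 to 153 and 44.6 to 50.9 in the matching Pole4+/+ groups, with Ckm at 0 in both Trp53+/+ groups; the median log2 fold change of the 6 tested muscle markers was -0.64 in Pole4-/- and 1.08 in Pole4+/+ MEFs, so the sum and the median differ in sign in Pole4+/+. Neuron markers summed to 77.2 to 97.2 CPM in Pole4-/- Trp53+/+ and 125 to 147 in Pole4-/- Trp53-/-, with 3 of 5 tested markers higher and Rbfox3 at 0 in both groups, and to 67.8 to 87.3 and 102 to 139 CPM in the matching Pole4+/+ groups. Epithelial markers summed to 2.13 to 2.68 and 4.398 to 20.6 CPM in the same Pole4-/- groups, with both tested markers higher, and to 2.90 to 7.59 and 2.93 to 15.6 CPM in Pole4+/+. Summed macrophage markers stood at 4.81 to 53.9 CPM, endothelial markers at 1.80 to 6.17 and adipocyte markers at 4.32 to 14.1 over the 18 libraries, and erythroid markers did not exceed 2.10 CPM. The part of cell makeup in the results was not tested.

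RefSeq promoter windows (GRCm38.p6), from 250 bases before to 50 bases after a start site, were at hand for all 9 genes, in 10 windows because Sesn1 has a pair of starts. Of the 32851 promoters in the same table, 8.36% contained the p53 half-site motif on either strand, 19.6% the hypoxia-response core ACGTG and 3.97% the ATF4-type element TGATGNAA. Among the 10 windows the half-site was found once, at 173 bases before the second start of Sesn1, and the hypoxia core was found in Ddit4 and Sco2. The Sco2 match lies 26 bases after RefSeq's start site, which is upstream of the Sco2 start in the gene annotation used below, and it is palindromic, so both strands carry it at overlapping positions, and the ATF4-type element was in none. The window of Sesn2 is shown because that gene was called in both backgrounds, that of Cpt1c because it changed most, that of Ddit4 because it holds the hypoxia core and the second Sesn1 window because it holds the half-site, with matches in capitals. The Sesn2 window lies at chr4:132510407-132510706 (minus strand), that of Ddit4 at chr10:59951721-59952020 (minus), that of Cpt1c at chr7:44974802-44975101 (minus) and the second Sesn1 window at chr10:41887189-41887488 (plus).
Sesn2: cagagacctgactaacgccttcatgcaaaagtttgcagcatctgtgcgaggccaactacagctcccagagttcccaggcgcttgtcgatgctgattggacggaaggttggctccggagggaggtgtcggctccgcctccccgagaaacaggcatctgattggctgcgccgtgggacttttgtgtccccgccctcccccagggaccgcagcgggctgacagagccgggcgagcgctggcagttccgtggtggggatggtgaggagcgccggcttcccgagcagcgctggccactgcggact
Ddit4: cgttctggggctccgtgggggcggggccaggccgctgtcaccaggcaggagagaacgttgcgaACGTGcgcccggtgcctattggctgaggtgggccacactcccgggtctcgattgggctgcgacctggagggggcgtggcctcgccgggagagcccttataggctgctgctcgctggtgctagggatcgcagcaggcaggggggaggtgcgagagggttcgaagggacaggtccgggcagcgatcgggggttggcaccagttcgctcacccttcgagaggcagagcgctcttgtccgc
Cpt1c: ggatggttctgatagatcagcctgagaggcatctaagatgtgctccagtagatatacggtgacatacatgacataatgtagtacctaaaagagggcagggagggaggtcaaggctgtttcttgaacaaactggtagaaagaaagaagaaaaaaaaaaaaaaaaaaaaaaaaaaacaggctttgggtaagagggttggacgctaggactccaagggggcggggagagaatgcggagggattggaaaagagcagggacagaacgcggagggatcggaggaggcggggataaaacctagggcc
Sesn1 second start: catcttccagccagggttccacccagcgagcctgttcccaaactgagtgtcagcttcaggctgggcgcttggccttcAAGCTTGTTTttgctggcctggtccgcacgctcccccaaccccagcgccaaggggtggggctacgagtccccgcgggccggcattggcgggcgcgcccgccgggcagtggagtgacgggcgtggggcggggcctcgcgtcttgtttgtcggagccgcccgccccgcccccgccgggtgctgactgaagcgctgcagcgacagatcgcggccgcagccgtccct

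G and C make up 64.7% of the Sesn2 window, 69.0% of the Ddit4 window and 47.3% of the Cpt1c window. A match is only a string of letters in the window, and an absent match says nothing on binding elsewhere in the gene.

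**Figure D1:**
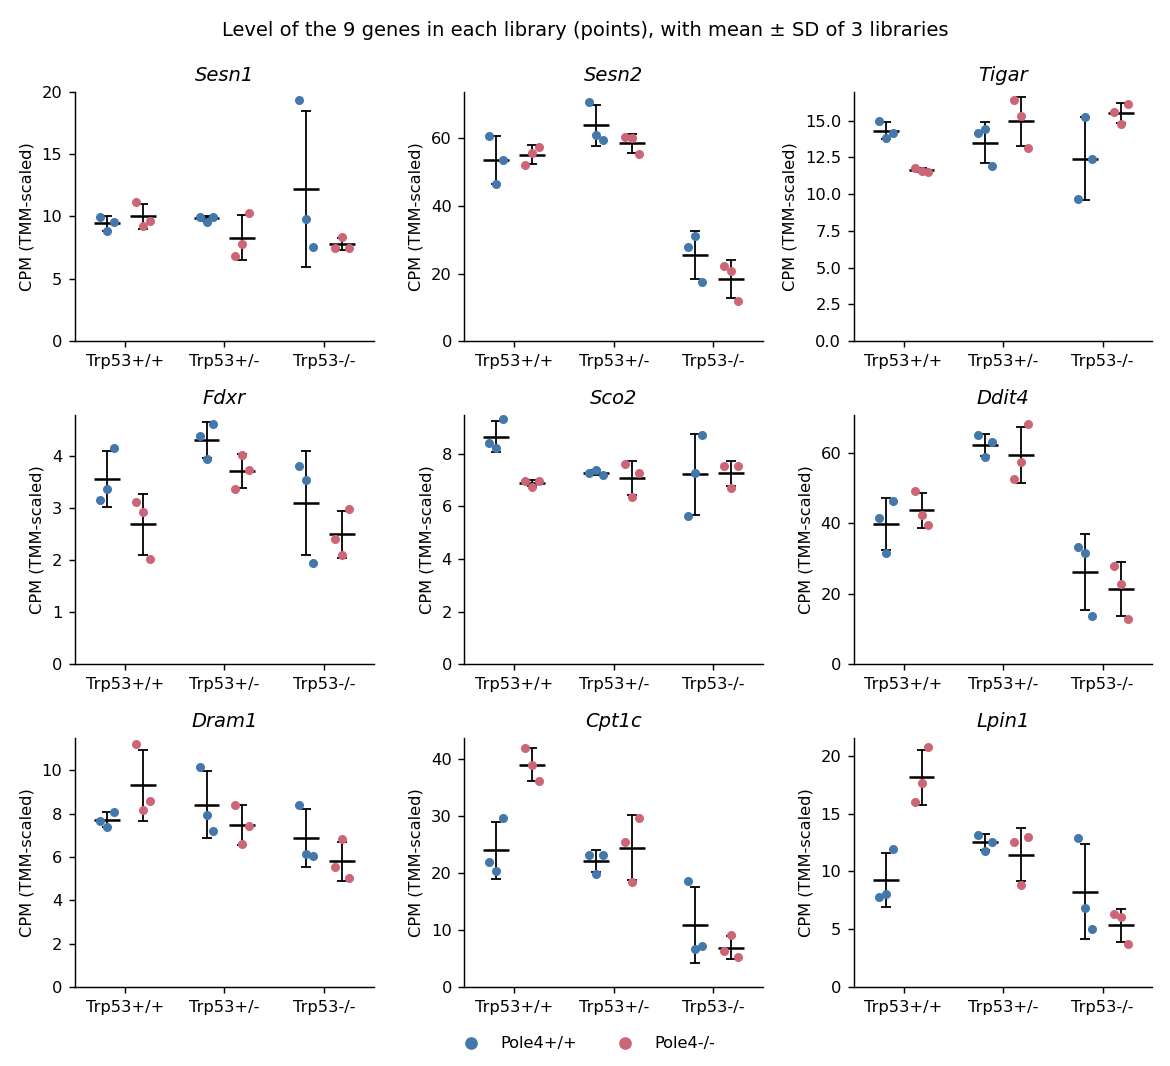
Level of each of the 9 genes in CPM (y axis, from 0) in every library of the 6 genotypes (x axis, Trp53 dosage; blue, Pole4+/+; red, Pole4-/-); points are libraries, black bars the mean and SD of 3. Sesn2 and Ddit4 are no lower with 1 Trp53 copy than with 2 and are lowest in Trp53-/-, whereas Cpt1c and Lpin1 step down with each copy in Pole4-/- MEFs; 1 Pole4+/+ Trp53-/- library stands above its fellows for Sesn1, Cpt1c and Lpin1.

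With both Trp53 copies gone, 5 of the 9 genes fell and 1 rose in Pole4-/- MEFs, and 1 fell in Pole4+/+ MEFs. A gene was called where its adjusted p (edgeR's quasi-likelihood test, Benjamini-Hochberg over 15710 genes) was under 0.05. In Pole4-/- MEFs 20.8% of all tested genes were lower and 21.8% higher by the same rule, and 42.6% were called in either direction. In Pole4+/+ MEFs 2.37% were lower, 2.23% higher and 4.6% called in either direction. The median log2 fold change of the 9 genes was -0.69 in Pole4-/- and -0.21 in Pole4+/+ MEFs, against -0.02 and 0.03 for all tested genes. Without the first Pole4+/+ Trp53-/- library the middle of the 9 Pole4+/+ values was -0.37, that of Dram1. That fit called 2 of the 9, and 2700 genes of the whole table against 723 with all libraries. The libraries of the compared groups did not overlap for 7 of the 9 genes in Pole4-/- MEFs, where 57% of all tested genes had no overlap, and for 2 in Pole4+/+ MEFs, where 16.5% had none. For a single gene an exact permutation test of 3 libraries against 3 cannot go below 0.1. Libraries of Pole4-/- Trp53-/- MEFs had 24.7% to 30.04% of their counts on ribosomal RNA genes, against 7.11% to 42.5% in Pole4-/- Trp53+/+, and the Sesn2, Ddit4, Dram1, Cpt1c, Lpin1 and Tigar calls remained when those genes were taken out before scaling.

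Sesn2, on chromosome 4 at 132492032-132510501 (GRCm38, minus strand), fell in both backgrounds. Its levels in Pole4-/- MEFs were 52.0, 55.8 and 57.6 CPM in Trp53+/+, 60.3, 60.1 and 55.3 in Trp53+/- and 22.2, 20.8 and 11.9 in Trp53-/-. In Pole4+/+ MEFs they were 60.7, 46.5 and 53.6, then 70.9, 61.1 and 59.6, and then 27.7, 31.2 and 17.5 CPM. Every Trp53-/- library lay below every library that kept a copy, in each background. The level in Trp53-/- was 33.4% of Trp53+/+ in Pole4-/- MEFs (log2 fold change -1.58 ± 0.21 SE, adjusted p = 5.0e-05) and 47.8% in Pole4+/+ MEFs (-1.06 ± 0.20, adjusted p = 0.00715). Across the alternative analyses that kept all libraries the adjusted p in Pole4+/+ MEFs ran from 1.9e-05 to 0.13, the highest of them when only the compared libraries were fitted.

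Ddit4 (chromosome 10, 59949669-59951834, minus strand) had the highest level per kilobase of exon of the 9 genes. Its mean over the 6 group means was 24.0 CPM per kb, against 13.2 for Sesn2, 5.91 for Sco2, 3.79 for Cpt1c, 3.75 for Tigar, 2.49 for Dram1, 2.41 for Sesn1, 1.18 for Fdxr and 1.12 for Lpin1. In Pole4-/- MEFs Ddit4 stood at 49.1, 42.5 and 39.5 CPM in Trp53+/+, 52.7, 57.5 and 68.2 in Trp53+/- and 27.9, 22.9 and 12.9 in Trp53-/-. In Pole4+/+ MEFs it stood at 41.4, 31.7 and 46.5, at 65.0, 59.0 and 63.1 and at 33.2, 31.6 and 13.7 CPM. The Trp53+/- libraries were the highest in both backgrounds, without overlap with either neighbour, and the third Trp53-/- library was the lowest in both. Ddit4 fell to 48.7% of Trp53+/+ in Pole4-/- Trp53-/- MEFs (log2 -1.04 ± 0.29 SE, adjusted p = 0.00925). In Pole4+/+ MEFs the difference was -0.59 ± 0.28 (adjusted p = 0.273), with 1 Trp53-/- library above the lowest Trp53+/+ library; it was -0.31 without the third and -0.82 without the first Trp53-/- library.

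Sesn1, the other sestrin of the list (chromosome 10, 41809935-41908424, plus strand), did not pass the test in either background. In Pole4-/- MEFs it stood at 11.1, 9.26 and 9.64 CPM in Trp53+/+, 6.85, 7.76 and 10.3 in Trp53+/- and 7.49, 8.38 and 7.49 in Trp53-/-. In Pole4+/+ MEFs it stood at 9.98, 8.79 and 9.55, at 9.99, 9.58 and 9.93 and at 19.3, 9.82 and 7.52 CPM. The first Pole4+/+ Trp53-/- library stood far above all others, and the rest of its group lay within or below the Trp53+/+ levels. The log2 fold change of Trp53-/- was -0.37 ± 0.25 SE in Pole4-/- (adjusted p = 0.263) and 0.39 ± 0.25 in Pole4+/+ MEFs (adjusted p = 0.438). Without that library the Pole4+/+ value was -0.14, and the only call for Sesn1 in Pole4-/- MEFs came when the compared libraries alone were fitted (adjusted p = 0.042).

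The lipid genes Cpt1c and Lpin1 moved most in Pole4-/- MEFs. Cpt1c (chromosome 7, 44959372-44974851, minus strand) stood at 41.9, 39.0 and 36.1 CPM in Trp53+/+, 25.4, 18.4 and 29.7 in Trp53+/- and 6.35, 9.11 and 5.24 in Trp53-/-. No library of one dosage overlapped the next. In Pole4+/+ MEFs it stood at 22.0, 20.3 and 29.7, at 23.3, 19.8 and 23.1 and at 18.6, 6.71 and 7.28 CPM. There, Trp53+/- overlapped Trp53+/+, and the first Trp53-/- library lay at 18.6, just under the lowest of the others. Cpt1c fell to 17.7% of Trp53+/+ in Pole4-/- Trp53-/- MEFs (log2 -2.50 ± 0.33 SE, adjusted p = 5.97e-05), 5.64-fold lower. In Pole4+/+ MEFs the difference was -1.12 ± 0.32 (adjusted p = 0.0574). Without the first Trp53-/- library it was -1.81 with an adjusted p of 0.00038. An antisense gene overlaps 6.53% of the exons of Cpt1c, and reads from opposite strands were not told apart.

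Lpin1 (chromosome 12, 16535669-16610966, minus strand) stood at 15.99, 17.7 and 20.7 CPM in Pole4-/- Trp53+/+, 12.5, 8.84 and 13.0 in Pole4-/- Trp53+/- and 6.31, 6.02 and 3.71 in Pole4-/- Trp53-/-. In Pole4+/+ MEFs the levels were 7.80, 8.01 and 11.98 in Trp53+/+, 13.2, 11.8 and 12.6 in Trp53+/- and 12.9, 6.87 and 5.01 in Trp53-/-. The Pole4-/- groups fell in steps that did not overlap, whereas the Pole4+/+ groups overlapped throughout. Lpin1 fell to 29.8% in Pole4-/- Trp53-/- MEFs (log2 -1.75 ± 0.30 SE, adjusted p = 0.000336). In Pole4+/+ MEFs the difference was -0.13 ± 0.29 (adjusted p = 0.865), and -0.65 without the first Trp53-/- library (adjusted p = 0.084).

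Dram1 (chromosome 10, 88322804-88379080, minus strand) changed less. It stood at 11.2, 8.18 and 8.57 CPM in Pole4-/- Trp53+/+, 8.41, 6.59 and 7.41 in Trp53+/- and 5.53, 6.81 and 5.04 in Trp53-/-, and in Pole4+/+ MEFs between 6.06 and 10.1 CPM. The Pole4-/- Trp53-/- libraries lay below all Trp53+/+ libraries of that background, but the highest was above the lowest of Trp53+/-. Dram1 fell to 61.8% of Trp53+/+ in Pole4-/- MEFs (log2 -0.69 ± 0.18 SE, adjusted p = 0.0065), and the difference in Pole4+/+ MEFs was -0.16 ± 0.18 (adjusted p = 0.706), or -0.37 without the first Trp53-/- library (adjusted p = 0.187). The call in Pole4-/- MEFs was lost without the first Trp53+/+ library (log2 -0.51, adjusted p = 0.060) and when library totals replaced TMM scaling.

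Tigar (chromosome 6, 127085116-127109557, minus strand) moved the other way. It stood at 11.8, 11.6 and 11.5 CPM in Pole4-/- Trp53+/+, 16.4, 15.3 and 13.2 in Trp53+/- and 15.6, 14.8 and 16.1 in Trp53-/-. All Pole4-/- libraries lacking at least 1 copy lay above the Pole4-/- Trp53+/+ libraries, which were also below every Pole4+/+ Trp53+/+ library (15.0, 13.8 and 14.2). Tigar rose to 133% of Trp53+/+ in Pole4-/- Trp53-/- MEFs (log2 0.41 ± 0.14 SE, adjusted p = 0.027), and its difference in Pole4+/+ MEFs was -0.21 ± 0.14 (adjusted p = 0.463), or -0.076 without the first Trp53-/- library. The rise was small: leaving out 1 library gave adjusted p values from 0.04 to 0.079, and it was kept in 1 of the 6 fits, without the second Trp53-/- library. It was also lost with library totals in place of TMM scaling. Of its exons, 3.34% overlap an antisense gene, and reads from opposite strands were not told apart.

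The mitochondrial genes showed no change that passed the test. Fdxr (chromosome 11, 115268024-115277050, minus strand), with 15 to 165 counts a library, stood between 1.94 and 4.61 CPM over all 18 libraries, and its log2 fold changes for Trp53-/- were -0.14 ± 0.25 SE in Pole4-/- (adjusted p = 0.70) and -0.17 ± 0.24 in Pole4+/+ MEFs (adjusted p = 0.77). Sco2 (chromosome 15, 89371637-89373846, minus strand) stood between 5.63 and 9.32 CPM, with 0.07 ± 0.14 (adjusted p = 0.714) and -0.27 ± 0.14 (adjusted p = 0.309). Without the first Pole4+/+ Trp53-/- library the Pole4+/+ values were -0.37 for Fdxr and -0.15 for Sco2, and neither passed the test. The highest group mean of Sco2 was that of Pole4+/+ Trp53+/+, with libraries at 8.43, 8.22 and 9.32 CPM. The 95% intervals of Sco2, -0.24 to 0.39 and -0.58 to 0.03 on the log2 scale, do not reach a change of the size of Sesn2's. Sco2 values are uncertain because 68.3% of its exon bases are shared with Tymp on the same strand and 66.2% with Ncaph2 on the opposite strand.

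**Figure D2:**
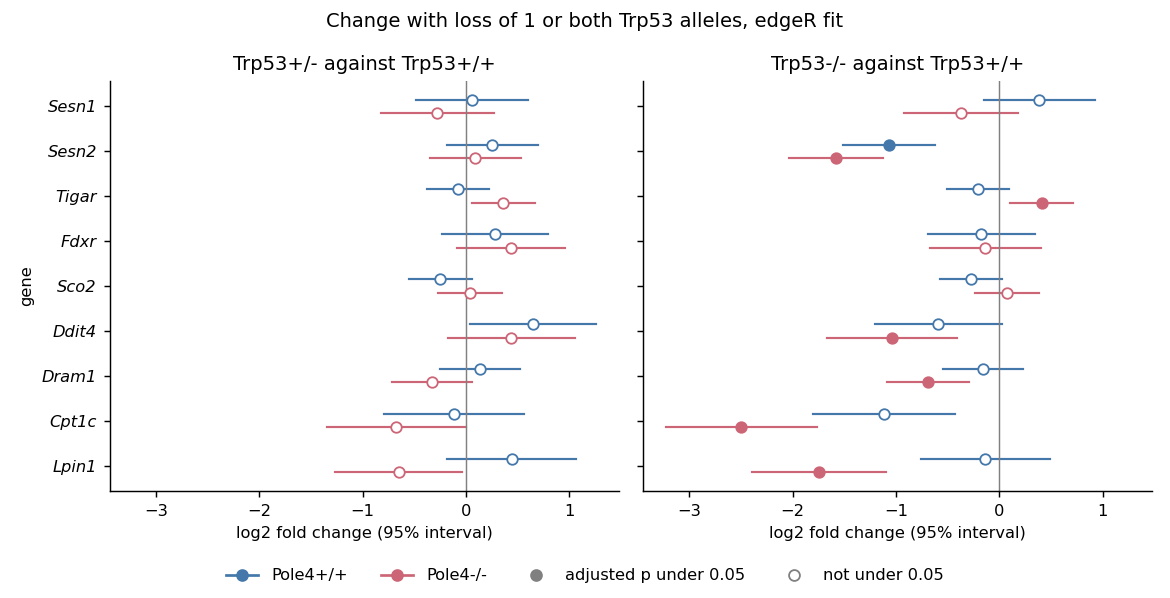
Log2 fold change (x axis, with 95% interval) of each gene (y axis) for Trp53+/- (left) and Trp53-/- (right) against Trp53+/+, in Pole4+/+ (blue) and Pole4-/- (red) MEFs; filled points have adjusted p under 0.05. No point is filled for Trp53+/-, and the filled points for Trp53-/- are Sesn2 in both backgrounds and Ddit4, Dram1, Cpt1c, Lpin1 and Tigar in Pole4-/-.

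With 1 Trp53 copy left, none of the 9 genes was called against Trp53+/+ in either background by edgeR, and DESeq2 also called 0, against 10.9% (Pole4-/-) and 2.56% (Pole4+/+) of all tested genes with DESeq2. In Pole4-/- MEFs 5.12% of all tested genes were called (2.16% lower and 2.96% higher) and in Pole4+/+ MEFs 0.904%. At an unadjusted p under 0.05 there were 3 of the 9 in Pole4-/- (2 lower, 1 higher) and 1 in Pole4+/+ MEFs, and limma with quality weights called 3 and 1. Of all tested genes, 26% and 10.2% had such an unadjusted p, and limma called 24.6% and 7.11%. The lower pair were Cpt1c (log2 -0.67 ± 0.31 SE) and Lpin1 (-0.65 ± 0.28), whose Trp53+/- means were 62.7% and 63.7% of Trp53+/+. Tigar was the higher, at 0.36 ± 0.14. In Pole4+/+ MEFs the values of Cpt1c and Lpin1 were -0.12 ± 0.31 and 0.44 ± 0.29, and Ddit4 was at 0.65 ± 0.28 (adjusted p = 0.426); sex was confounded with Trp53+/- there.

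From 1 copy to 0 copies, 4 of the 9 genes fell in Pole4-/- MEFs and 1 in Pole4+/+ MEFs; of all tested genes, 5.91% and 0.509% were lower. Sesn2 fell to 31.4% of its Trp53+/- level in Pole4-/- (log2 -1.67 ± 0.21 SE, adjusted p = 0.000225) and to 40.1% in Pole4+/+ MEFs (-1.32 ± 0.21, adjusted p = 0.00438). The latter call was lost with log2 Xist as a covariate (adjusted p = 0.21) and when only the compared libraries were fitted. Ddit4 fell to 35.9%, Cpt1c to 28.2% and Lpin1 to 46.9% in Pole4-/- MEFs, with log2 values of -1.48 ± 0.29 (adjusted p = 0.00468), -1.82 ± 0.33 (0.00322) and -1.09 ± 0.29 (0.0241). The Lpin1 call was lost without the first or the third Trp53+/- library or the third Trp53-/- library, at adjusted p up to 0.13. In Pole4+/+ MEFs the log2 differences were -1.24, -0.998 and -0.58 for Ddit4, Cpt1c and Lpin1, and none of these passed the test. Without the first Trp53-/- library all 3 did, at -1.46, -1.69 and -1.08 (adjusted p = 0.021, 0.0014 and 0.017). That fit called 1501 genes of the whole table, against 91 with all libraries. Sex cannot be told apart from Trp53+/- in this background.

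Whether 1 copy gave a level midway between 2 and 0 copies was tested on the log2 scale. The Trp53+/- value of Sesn2 lay 0.88 ± 0.17 SE above the midpoint in Pole4-/- (adjusted p = 0.0551) and 0.79 ± 0.17 above it in Pole4+/+ MEFs (adjusted p = 0.0780). For Ddit4 it lay 0.96 ± 0.24 (0.164) and 0.94 ± 0.24 (0.156) above. In Pole4+/+ MEFs the Trp53+/- libraries were all male and the others all female, so this test cannot tell sex from dosage there. None of the 9 genes passed the test in either background in the edgeR fit of 6 genotype means, while 0.165% and 0.299% of all genes did. At an unadjusted p under 0.05 there were 4 of the 9 in Pole4-/- and 2 in Pole4+/+ MEFs, all above the midpoint, against 8.52% and 6.66% of all tested genes, and DESeq2 called Sesn2 and Ddit4 in both backgrounds, where it called 1.01% and 0.878% of all genes. Of the 11 alternatives that kept all libraries, 7 called Sesn2 in the Pole4-/- and 3 in the Pole4+/+ background, among them edgeR with the replicate number as a block (adjusted p = 0.0238 and 0.0435). Cpt1c lay 0.58 ± 0.27 and Lpin1 0.22 ± 0.24 above the midpoint in Pole4-/- MEFs, with adjusted p of 0.575 and 0.881. Without the first Pole4+/+ Trp53-/- library the Pole4+/+ values were 0.82 for Sesn2, 1.05 for Ddit4, 0.78 for Cpt1c and 0.76 for Lpin1. Their adjusted p values by edgeR were 0.047, 0.066, 0.0505 and 0.066, so Sesn2 alone passed. That fit called 163 genes of the whole table, against 47 with all libraries.

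Pole4 loss alone was compared at each Trp53 dosage. In Trp53+/+ MEFs 3.98% of all tested genes were called (2.7% lower and 1.29% higher) and none of the 9 by edgeR, although 4 had an unadjusted p under 0.05 (2 lower, 2 higher); DESeq2 called 1 and limma 4. Of all tested genes 26.1% had such an unadjusted p, DESeq2 called 10.3% and limma 33.3%. Of the compared libraries 2 of 3 were male in Pole4-/- and 0 of 3 in Pole4+/+, and the 626 genes called over the whole table became 11 with log2 Xist as a covariate and 8 without the second Pole4+/+ library. The higher pair were Lpin1, at 196% of Pole4+/+ (log2 0.97 ± 0.29 SE, 95% interval 0.34 to 1.59, adjusted p = 0.0652), and Cpt1c at 163% (0.71 ± 0.31, 0.03 to 1.38, adjusted p = 0.167). For both genes the 3 libraries of one group lay apart from the 3 of the other, as they did for 41.1% of all tested genes. In Trp53+/- and in Trp53-/- MEFs none of the 9 was called by edgeR or by any alternative, with 0 and 4 of them at an unadjusted p under 0.05 (5.51% and 10.4% of all genes), and 0.00637% of all genes were called in each.

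The Trp53-/- effect was then compared between the backgrounds itself. Its difference, Pole4-/- minus Pole4+/+, was -1.61 ± 0.41 SE for Lpin1 (adjusted p = 0.055), -1.38 ± 0.45 for Cpt1c (0.083), 0.62 ± 0.20 for Tigar (0.0779), -0.76 ± 0.35 for Sesn1 (0.173), -0.53 ± 0.25 for Dram1 (0.18), -0.52 ± 0.29 for Sesn2 (0.25) and -0.45 ± 0.40 for Ddit4 (0.482). For Sco2 it was 0.35 ± 0.20 (0.261) and for Fdxr 0.04 ± 0.34 (0.957). None of the 9 passed the test by edgeR, at a background of 0.331% of genes. DESeq2 called 3 (Lpin1, Cpt1c and Tigar) and limma 1, and 4 of the 9 (these and Sesn1) had an unadjusted p under 0.05. Of all tested genes DESeq2 called 11.3%, limma called 7.85% and 28.3% had such an unadjusted p. With each library left out in turn the difference ran from -1.86 to -1.11 for Lpin1, called in 3 of 12 fits, -1.64 to -0.70 for Cpt1c, called in 2, and 0.47 to 0.81 for Tigar, called in 2. Sesn1 ran from -1.01 without the third Pole4+/+ Trp53-/- library, where alone it was called (adjusted p = 0.0349), to -0.25 without the first. The values of Lpin1, Cpt1c and Tigar nearest to 0 came without the first Pole4+/+ Trp53-/- library, and those farthest from 0 without the third for Lpin1 and without the second for Cpt1c and Tigar. The ranges were 0.20 to 0.49 for Sco2 and -0.19 to 0.21 for Fdxr, with none called. Without the first Pole4+/+ Trp53-/- library the Sco2 and Fdxr values were 0.20 and 0.21. Ranges for the remaining genes follow. They were -0.66 to -0.33 for Dram1, -0.72 to -0.28 for Sesn2 and -0.74 to -0.19 for Ddit4, with none called, and -0.35, -0.44 and -0.24 without the first Pole4+/+ Trp53-/- library. The background was unsteady too: 52 genes were called with all libraries and 3242 without the third Pole4+/+ Trp53-/- library. For the Trp53+/- effect edgeR called 0 genes of the whole table; 2 of the 9 had an unadjusted p under 0.05 (10.1% of all genes), and limma called 1 (6.51%).

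**Figure D3:**
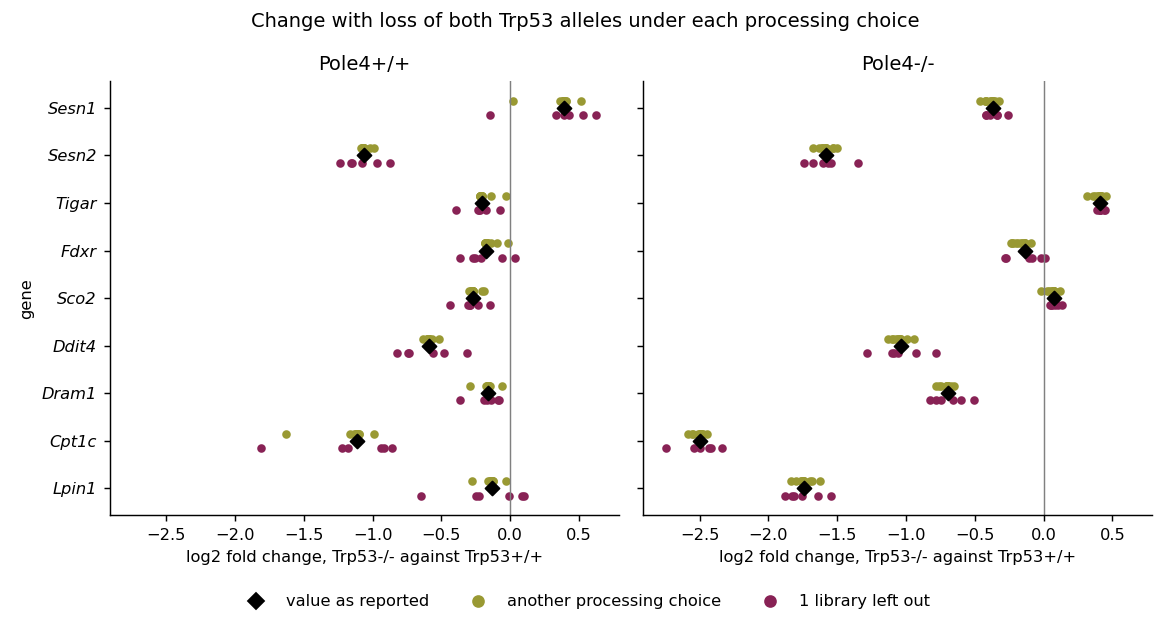
Log2 fold change of Trp53-/- against Trp53+/+ (x axis) for each gene (y axis) in Pole4+/+ (left) and Pole4-/- (right) MEFs, as reported (black diamonds), under other processing choices (olive) and with 1 library left out (purple). The Pole4-/- values of Sesn2, Ddit4, Dram1, Cpt1c and Lpin1 stay below 0 throughout, and in Pole4+/+ MEFs the value of Cpt1c moves from -1.12 to -1.81 without 1 library.

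The closest family relatives of the 9 genes included 8 tested genes, of which 4 fell and 1 rose in Pole4-/- Trp53-/- MEFs, and 2 fell in Pole4+/+ Trp53-/- MEFs. Of all tested genes, 20.8% were lower and 21.8% higher in the first comparison and 2.37% lower in the second. Ddit4l, which also restrains TORC1, fell to 20.5% and 20.3% (log2 -2.29 ± 0.36 SE, adjusted p = 0.000202, and -2.30 ± 0.36, adjusted p = 0.00169). Its levels in Pole4+/+ MEFs were 12.1, 12.6 and 12.04 CPM in Trp53+/+ and 4.52, 1.44 and 1.05 in Trp53-/-. So both Ddit4 and Ddit4l were lower in Pole4-/- Trp53-/- MEFs, and Ddit4l was also called in Pole4+/+. Lpin3, a second phosphatidate phosphatase, fell in both backgrounds (-0.94 ± 0.18 and -0.91 ± 0.17), and its Trp53+/- value against Trp53+/+ was -0.97 ± 0.18 (adjusted p = 0.0164) in Pole4+/+ MEFs, where sex cannot be told apart from Trp53+/-, and 0.19 ± 0.17 (adjusted p = 0.496) in Pole4-/- MEFs.

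Sesn3, the third sestrin, fell in Pole4-/- Trp53-/- MEFs (log2 -2.28 ± 0.60 SE, adjusted p = 0.00794), from 115, 99.2 and 104 CPM to 21.2, 26.7 and 17.6. In Pole4+/+ MEFs it stood at 43.1, 34.6 and 65.1 in Trp53+/+ and at 123, 20.8 and 15.8 in Trp53-/-, so 1 library was far above its group. It is the same library that stands apart for Sesn1, Cpt1c and Lpin1. Cpt1a, the liver-type carnitine palmitoyltransferase that admits fatty acids to mitochondria, fell in Pole4-/- MEFs (-1.31 ± 0.30, adjusted p = 0.00278) and was at -0.19 ± 0.29 in Pole4+/+ MEFs. There it stood at 28.2, 31.0 and 39.5 CPM in Trp53+/+ and at 46.1, 20.9 and 18.7 in Trp53-/-, the same library again being the high one and the others below every Trp53+/+ library. Sco1, the relative of Sco2, rose in Pole4-/- MEFs (0.71 ± 0.13, adjusted p = 0.000577). Cpt1b, Dram2 and Lpin2 were at -1.12 ± 0.52, -0.27 ± 0.12 and 0.14 ± 0.09 and did not pass the test.

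The 9 genes were set beside lists of other genes from the same pathways, described by their counts. Of 34 further genes described as TRP53 targets in metabolism, redox control and autophagy, 33 were matched and 31 tested; 15 fell and 5 rose in Pole4-/- Trp53-/- MEFs, and 6 fell and 0 rose in Pole4+/+ Trp53-/- MEFs, against the 20.8% and 21.8%, and 2.37% and 2.23%, of all tested genes. The median log2 fold change of these genes was -0.42 and -0.05. The largest falls called in both backgrounds were those of Trp53inp1, a promoter of autophagy (-5.34 ± 0.65 SE and -3.51 ± 0.58), Dapk1, a death-associated kinase (-2.81 ± 0.28 and -1.83 ± 0.28), Ctsd, the lysosomal protease cathepsin D (-1.82 ± 0.21 and -0.82 ± 0.20), Aldh4a1, an enzyme of proline breakdown (-1.44 ± 0.17 and -0.62 ± 0.17) and Irgm1, an immunity-related GTPase (-0.78 ± 0.16 and -0.96 ± 0.16). Trp53inp1 went from 153 CPM in Pole4-/- Trp53+/+ to 87.4 in Trp53+/- and 3.71 in Trp53-/-. The largest change among the 9 genes was that of Cpt1c, -2.50, in Pole4-/- MEFs.

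Lists of genes on which the 9 act, or that share other inducers with them, moved in a mixed way, and their counts stand against 20.8% of all tested genes lower and 21.8% higher in Pole4-/- MEFs, and 2.37% and 2.23% in Pole4+/+ MEFs. Of the 26 AMPK, TSC, GATOR and TORC1 genes, 4 fell and 3 rose in Pole4-/- Trp53-/- MEFs and 1 rose in Pole4+/+ Trp53-/- MEFs; Seh1l, a GATOR2 and nuclear pore subunit, was the gene called in both (0.61 ± 0.08 and 0.29 ± 0.08). Among 23 mitochondrial and lipid partner genes 7 fell and 2 rose in Pole4-/- MEFs, and 0 were called in Pole4+/+ MEFs by edgeR, where 3 had an unadjusted p under 0.05, as 19% of all tested genes did. Cpt1a, given above, was among those that fell. Of 14 ATF4 targets 2 fell and 5 rose, with Psat1 and Shmt2, enzymes of serine and glycine metabolism, at 0.88 ± 0.16 and 0.87 ± 0.16. Of 12 hypoxia targets 2 fell and 1 rose, among them P4ha1 at -0.60 ± 0.16 and Egln3 at 0.89 ± 0.27. Of 9 tested glucocorticoid targets 4 fell and 3 rose, with Sgk1 and Fkbp5 at 1.38 ± 0.36 and 1.02 ± 0.15. In Pole4+/+ Trp53-/- MEFs none of the genes in the ATF4, hypoxia and glucocorticoid lists was called by edgeR, while 1, 4 and 1 had an unadjusted p under 0.05.

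**Figure D4:**
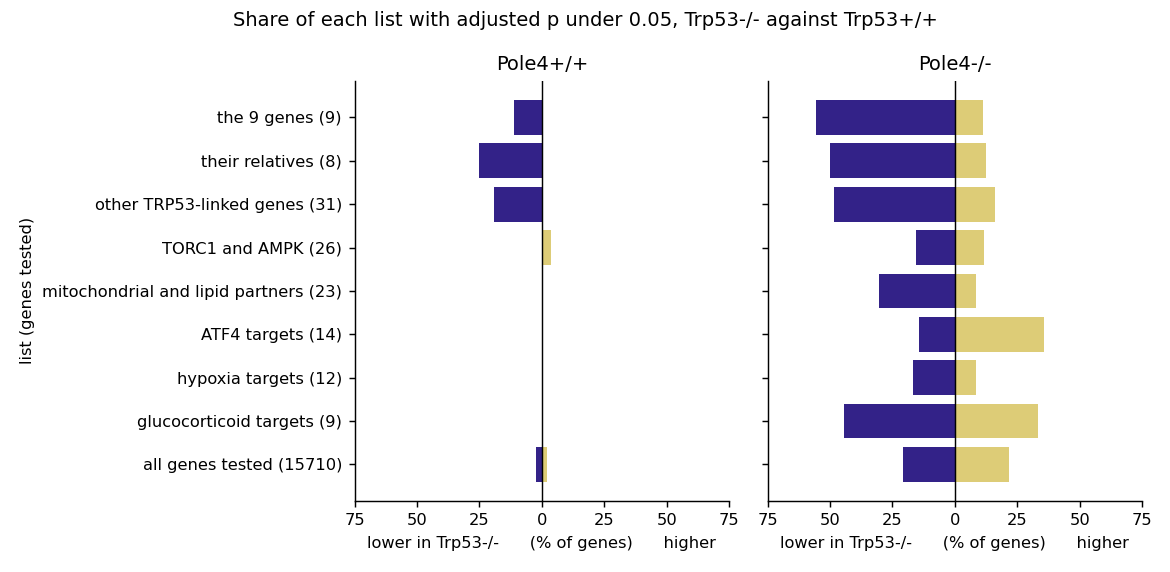
Percent of the tested genes of each list (y axis, with the number tested) that were lower (left of 0) or higher (right of 0) in Trp53-/- than in Trp53+/+ at adjusted p under 0.05, in Pole4+/+ (left) and Pole4-/- (right) MEFs. In Pole4-/- MEFs 5 of the 9 genes and 15 of the 31 other TRP53-linked genes were lower, against 20.8% of all tested genes.

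Genes whose log2 CPM followed a member most closely over the 18 libraries were found by Pearson's r, given as a description, since libraries share genotype, depth and scaling. The pattern of Cpt1c was most like those of Aldh4a1 (r = 0.986), Tbc1d9b (0.980) and Tcea3 (0.976). Lpin1 was most like Fam53b (0.961), Calcoco1 (0.960) and Creld1 (0.959), and Ddit4 like Gys1 (0.960), Fam162a (0.948) and Ddit3 (0.940). Sesn2 was most like Prrc1 (0.950), AU022252 (0.950) and Bbc3 (0.941). For Dram1 the nearest was Stk25 (0.903), for Tigar Ppm1a (0.904), for Sesn1 Ptn (0.881), for Sco2 Galnt7 (0.868) and for Fdxr Hps4 (0.860). Among the 9 genes themselves, Sesn2 and Ddit4 (r = 0.927) and Cpt1c and Lpin1 (0.912) were the closest pairs, and Sesn1 and Tigar were the most opposed (-0.737). The first Pole4+/+ Trp53-/- library had both the highest Sesn1 (19.3 CPM) and the lowest Tigar level (9.65 CPM) of the 18. The r without that library was not computed.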

How the data were processed

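Per the labels, cDNA from total RNA was made with an Ovation RNA-Seq kit, which does not mark the strand; the labels and the study's methods name different RNA extraction reagents. Libraries were sequenced on an Illumina HiSeq. The authors trimmed reads with Trim Galore and aligned and counted them with STAR 2.5.2 and RSEM 1.3.0 on GRCm38; the deposited values are RSEM's expected counts per gene, not normalized, in 1 table of 18 libraries. Of these values 6.14% are not whole, and they were rounded. Gene IDs were matched to GENCODE's GRCm38 annotation (51719 of 51912), and level per kb used merged exon length.

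The test was edgeR's (version 4.0.16, under R 4.3.3; filterByExpr, TMM, robust quasi-likelihood fit, 1 mean per genotype, 12 residual degrees of freedom), with Benjamini-Hochberg adjustment over the 15710 genes tested and calls under 0.05. Log2 CPM used a prior count of 2. There were 13 comparisons. The alternatives, among them DESeq2 1.42.0 and limma 3.58.1, numbered 11 with all libraries kept, and 18 fits left out 1 library each. Fold changes carry SE, and group values SD, of 3 libraries. Python 3.11.15 was used for tables and figures.

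The 9 genes and every list were chosen with earlier results of these data known. Named genes were the 9, the check genes Trp53, Pole4, Cdkn1a and Mdm2, each family relative, up to 5 genes a list called in both Trp53-/- comparisons in 1 direction with the largest mean change, else up to 2 called in one, and the genes of highest Pearson r. 1 gene that the rule names is not reported here. Depth sets the precision: a member had 15 to 2674 counts in a library. The authors' own tests were not used.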

Additional observations from a re-analysis of the deposited data

How the results depend on the processing

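Of 693 values from alternatives that kept all libraries, 636 kept their direction and call, 41 gained a call, 7 lost one and 9 reversed; of 456 that left out a library, 419 were kept, 16 gained, 9 lost and 12 reversed. No value that reversed was called with all libraries by edgeR. With all libraries kept they were Sesn1 in Trp53+/- against Trp53+/+, Pole4-/- (0.015 with library totals), Sco2 in Pole4-/- with upper-quartile scaling (-0.020 for Trp53-/- and -0.0030 for Trp53+/-) and the difference of Trp53-/- effects for Fdxr (-0.028 with DESeq2, -0.11 with library totals, -0.057 with upper-quartile scaling, -0.025 with a mean of at least 50 counts, -0.21 with limma and -0.051 with the Xist covariate; -0.19 to 0.21 with a library left out). Leaving out 1 library gave -0.28 to 0.011 for Fdxr and -0.0050 to 0.11 for Sco2 (Trp53+/-) in Pole4-/-; in Pole4+/+ it gave, for Trp53-/-, -0.14 to 0.62 for Sesn1, -0.37 to 0.038 for Fdxr and -0.65 to 0.097 for Lpin1, and for Trp53+/-, -0.024 to 0.22 for Dram1 and -0.22 to 0.062 for Cpt1c. The cause was not tested.

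Members called also moved. For Trp53-/- in Pole4-/- MEFs the alternatives gave 4 to 7 against Trp53+/+, where edgeR called 6, and 3 to 5 against Trp53+/-, where it called 4. For Trp53+/- against Trp53+/+ in Pole4-/- MEFs 0 became 1 with library totals and 3 with limma or with only the compared libraries, and in Pole4+/+ 0 became 1 with limma. For Trp53-/- against Trp53+/+ in Pole4+/+ MEFs 1 became 2 with DESeq2 and limma and 0 with only the compared libraries; against Trp53+/- it became 2 with DESeq2, 4 with limma and 0 with the Xist covariate or only the compared libraries. For the midpoint in Pole4-/- MEFs 0 became 2 with DESeq2 and library totals and 1 with a mean of at least 50 counts, without ribosomal RNA genes, with the replicate block, with limma and with only the compared libraries; in Pole4+/+ it became 2 with DESeq2, 1 with the block and 4 with limma. For Pole4 loss in Trp53+/+ MEFs 0 became 1 with DESeq2 or library totals, 4 with limma and 2 with only the compared libraries. For the difference of Trp53-/- effects 0 became 3 with DESeq2 and 1 with limma or a mean of at least 50 counts, and for Trp53+/- effects 1 with limma. Leaving out 1 library gave 4 to 6 and 1 to 2 members for Trp53-/- against Trp53+/+ (Pole4-/-, Pole4+/+), 3 to 4 and 1 to 4 against Trp53+/-, 0 to 1 for either midpoint and for Pole4 loss, and 0 to 4 for the difference of effects.

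Counts over all genes, by edgeR with all libraries and as the lowest and highest over the alternatives, were 6699 (3722 to 8126) and 723 (90 to 2946) for Trp53-/- against Trp53+/+ (Pole4-/-, Pole4+/+), 805 (45 to 3862) and 142 (22 to 1117) for Trp53+/- against Trp53+/+, 1963 (664 to 4031) and 91 (18 to 1193) for Trp53-/- against Trp53+/-, 26 (19 to 159) and 47 (7 to 443) for the midpoints, 626 (11 to 5229) for Pole4 loss in Trp53+/+ MEFs and 52 (0 to 1775) for the difference of Trp53-/- effects. Leaving out 1 library gave 5108 to 6007, 325 to 2700, 17 to 553, 17 to 101, 654 to 1803, 56 to 1501, 18 to 29, 15 to 163, 8 to 799 and 0 to 3242 genes in the same order. The 2700 and 1501 came without the first and the 3242 without the third Pole4+/+ Trp53-/- library, the 17 and 553 in Pole4-/- without the second and the third Trp53+/- library, and the 8 without the second Pole4+/+ Trp53+/+ library.

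Replicate numbers were not taken as pairs, since the study does not say that they pair cultures. For same-numbered libraries the correlation of deviations, r, ran from -0.259 to 0.586 (median 0.098, 22 of 45 pairs over 0.1). For different numbers the median was -0.060 (16 of 90 pairs over 0.1). Of the 18 libraries 13 were closest to their own number, a hint of pairing from the data and not from the design. With the replicate block Sesn2 passed the midpoint test in both backgrounds (adjusted p = 0.0238 and 0.0435). Scaling to library totals moved the median of all genes by -0.42 to 0.31, and with 3 libraries a group small changes in Fdxr, at 15 to 165 counts, were not detectable.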

Other observations

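ATF4 targets and hypoxia targets, known to share inducers with Sesn2 and Ddit4, were also described with 1 Trp53 copy and with Pole4 loss. In Pole4-/- Trp53+/- MEFs the median log2 fold change against Trp53+/+ was 0.60 for the 14 ATF4 targets and 0.40 for the 12 hypoxia targets, and 4 and 3 of them rose and 0 fell, against 2.96% of all tested genes called higher. The counts moved both ways. Leaving out the second Trp53+/- library or the second or the third Trp53+/+ library left 0 called in either list. Log2 Xist as a covariate left 1 and 0, and an adjusted p under 0.01 left 0 in both. DESeq2 called 6 and 5 higher (10.9% of all tested genes in either direction) and limma 8 and 6 (24.6%). Library totals gave 8 and 5, and fitting only the compared libraries 10 and 5. The alternatives called 45 to 3862 genes of the whole table. The medians over the fits that left out 1 library were 0.46 to 0.71 and 0.28 to 0.52. In Pole4+/+ Trp53+/- MEFs 0 ATF4 targets were called by edgeR and 1 hypoxia target rose, against 0.904% of all tested genes called, with medians of 0.28 and 0.36. At an unadjusted p under 0.05, 3 ATF4 targets were higher, and 4 hypoxia targets were higher and 1 lower, against 10.2% of all genes. The hypoxia call was lost with the Xist covariate, with library totals, and without the first or the third Trp53+/- or the first or the second Trp53+/+ library. DESeq2 called 3 hypoxia targets higher (2.56% of all tested genes in either direction), limma 4 (7.11%) and the fit of only the compared libraries 2.

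In Trp53+/+ MEFs the median of the ATF4 targets was -0.45 in Pole4-/- against Pole4+/+, and 4 of the 14 were lower, against 2.7% of all tested genes. With log2 Xist as a covariate 0 were called (median -0.50), and 5 of 6 fits with a library left out also called 0 (medians over the 6, -0.52 to -0.37). The call of 4 was kept without the third Pole4+/+ library. Library totals, limma and the fit of only the compared libraries each called 8 lower, and DESeq2 called 4. Of all tested genes limma called 33.3% and DESeq2 10.3% in either direction. The alternatives called 11 to 5229 genes of the whole table. Of the 12 hypoxia targets 0 were called by edgeR with Pole4 loss (median -0.02). At an unadjusted p under 0.05, 2 of them were lower, against 26.1% of all tested genes in either direction, and limma called 2 lower. The same Pole4-/- Trp53+/+ libraries serve as the reference of the first comparison.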
